A study of Homo sapiens with 32 samples.

Results

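Parental HCT116 cells exposed to tunicamycin were compared with the same cells in DMSO. All 8 libraries labelled as parental were used, of 32 in the series, with 4 libraries per treatment. HCT116 is a human colorectal carcinoma line, and the cells used here carried the genotype Tet-OsTIR1-PURO, a doxycycline-inducible copy of the plant F-box protein OsTIR1 that the controls carried too. Tunicamycin was given at 5 µg/mL for 4 h, and the controls received DMSO alone. Each treatment held parental samples 1 and 2, each with replicates 1 and 2. The other 24 libraries, used only for a comparison at the end, came from 3 IGF2BP3 KO clones and 3 IGF2BP2 KO clones of the same Tet-OsTIR1-PURO genotype, in tunicamycin or DMSO. The IGF2BP3 KO clones had the dose and time of the parental cells; for the IGF2BP2 KO clones neither is given in the sources used here. The labels speak of replicates and do not say whether the parental samples were separate cultures, so p-values measure the spread between these libraries only, which may be technical. Poly(A)-selected RNA was sequenced, and 14398 of 60660 genes passed the filter on low counts.

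Tunicamycin blocks the enzyme DPAGT1, which starts the sugar tree that is later attached to newly made secretory and membrane proteins. Without that tree many such proteins misfold in the endoplasmic reticulum (ER), and the sensors PERK, IRE1 and ATF6 start the unfolded protein response. PERK phosphorylates eIF2α, which lowers most translation while raising that of the transcription factor ATF4. IRE1 splices the mRNA of the factor XBP1, and ATF6 is cut in the Golgi to release a transcription factor; both act on genes for chaperones, degradation and secretion.

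Total counts ran from 19103176 to 24913021 per parental library. Replicate number set the libraries apart, since 21621 to 22275 genes were detected in those of replicate 1 and 23749 to 24024 in those of replicate 2. Same-numbered libraries of the parental samples differed by a chi-square statistic of 2.97 and 1.76 per degree of freedom in DMSO, where they were the closest pairs, and of 8.55 and 3.97 in tunicamycin, so none was treated as a duplicate. In tunicamycin the replicate 1 library of sample 1 was closer to the replicate 2 library of sample 2 (7.11) than to its same-numbered partner (8.55). The tunicamycin library of sample 2, replicate 1 stood farthest from the others of its group (8.55 to 24.0 per degree of freedom), and counts that move without it are given beside the results. The cells matched their label: the 12 epithelial markers summed to 3673 to 4888 CPM (library-normalised counts) in DMSO and to 4016 to 5099 CPM in tunicamycin, although CDX1 and LGALS4, both intestinal genes, were at 0 in all 8 libraries. The 19 markers of blood, endothelial, stromal, liver and nerve cells summed to 13.0 to 16.4 CPM in DMSO and 13.3 to 17.7 CPM in tunicamycin, with DCN and LUM at 0, and none of the 4 that could be tested was called.

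After 4 h, 5989 of 14398 genes (41.6%) differed between tunicamycin and DMSO in edgeR's quasi-likelihood test (Benjamini-Hochberg adjusted p below 0.05). Of all genes tested, 2836 (19.7%) rose and 3153 (21.9%) fell, and the median log2 fold change over all genes was -0.01. Most changes were small: 1821 of the genes that rose and 2209 of those that fell did so by at most 0.5 on the log2 scale. Among large changes the balance tipped the other way, since 397 genes (2.76%) rose and 187 (1.3%) fell by more than 1. Beyond 2 on the log2 scale there were 93 increases and 10 decreases, and beyond 4 there were 13 increases and no decrease. All 4 tunicamycin libraries lay above all 4 DMSO libraries for 1985 genes (13.8%) and below them for 2321 genes (16.1%). The number of calls was 3854 without the replicate number as a term and 3434 in parental sample 2 alone, against 6225 without the tunicamycin library that stood apart. Tested against a log2 fold change of 1 rather than 0, 216 genes rose and 43 fell.

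The strongest increase among well-covered genes was that of DDIT3, which encodes CHOP, a transcription factor of prolonged ER stress (chr12:57516588-57520517 on GRCh38.p14). In the order sample 1 replicates 1 and 2, then sample 2 replicates 1 and 2, which is kept throughout, DDIT3 stood at 1.62, 2.93, 1.67 and 2.23 CPM in DMSO and at 265, 207, 249 and 219.6 CPM in tunicamycin. That is a log2 fold change of 6.81 with an SE of 0.114 (adjusted p 1.56e-13), or 112-fold, with a wide gap between the groups. DDIT3 exons share 31.6% of their bases with genes on the opposite strand, and whether the counts used the strand is not given in the sources used here. HERPUD1, an ER membrane protein of the degradation complex (chr16:56932142-56944864), rose from 30.5, 28.9, 31.1 and 28.0 CPM to 1188, 1088, 1225 and 1086 CPM, a log2 fold change of 5.27 with an SE of 0.0352 (adjusted p 2.84e-17). HSPA5, which encodes BiP, the main chaperone of the ER (chr9:125234853-125241343), rose from 1059.5, 894, 1086 and 842 CPM to 10799, 9927, 9657 and 9281 CPM, a log2 fold change of 3.36 with an SE of 0.047 (adjusted p 3.17e-14). The group means were 970.4 ± 121 CPM in DMSO and 9916 ± 646 CPM in tunicamycin (SD, n = 4 each). All 3 marker genes of the response separated the groups in both parental samples, and the plot of response genes by library shows how little the libraries of a group differ beside the shift.

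**Figure D1:**
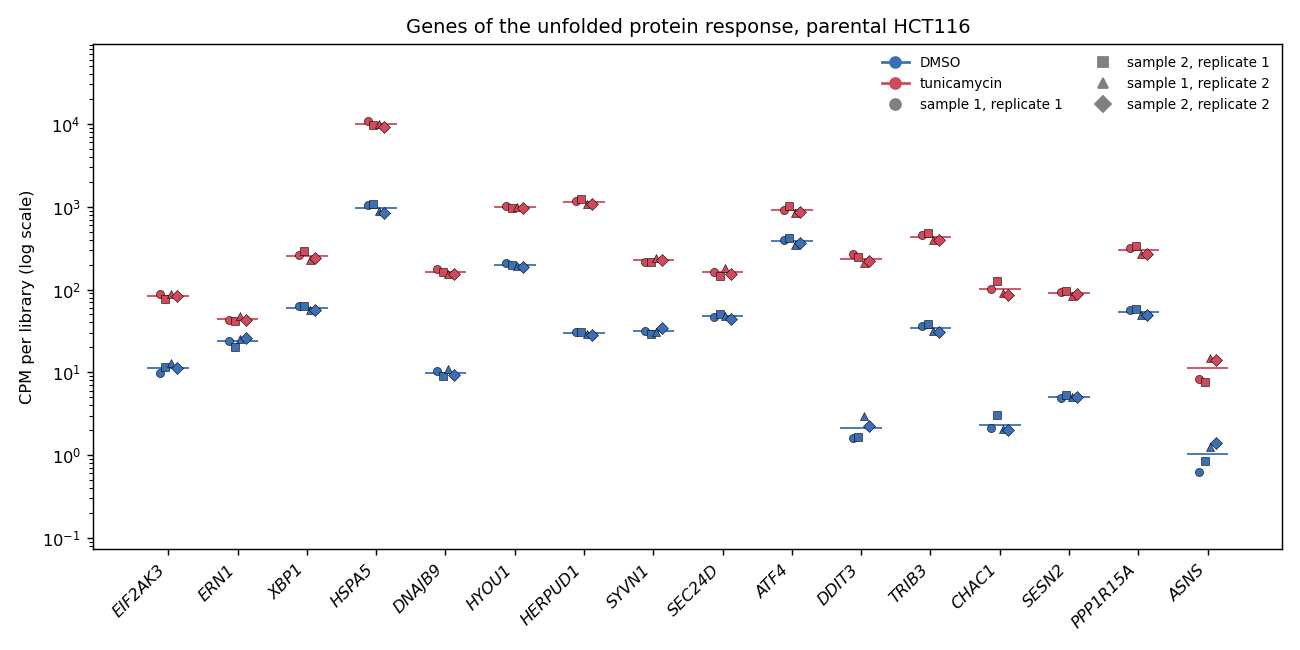
Library-normalised counts (CPM, log axis) of 16 genes of the unfolded protein response in each of the 8 parental libraries; symbols give parental sample and replicate, horizontal lines the group means. Every gene shown is higher in all 4 tunicamycin libraries, from ERN1 (log2 fold change 0.87) to DDIT3 (6.81).

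Among the sensors, EIF2AK3, which encodes PERK, changed most. It stood at 9.90, 12.8, 11.4 and 11.2 CPM in DMSO and 87.4, 89.2, 76.3 and 84.5 CPM in tunicamycin, a log2 fold change of 2.89 with an SE of 0.0615 (adjusted p 1.37e-12). ERN1, which encodes IRE1α, rose by 0.87 (SE 0.056, adjusted p 6.71e-08) and ATF6 by 0.52 (SE 0.045, adjusted p 1.04e-06) on the same scale. ATF6 mRNA went from 69.1 ± 2.21 to 99.5 ± 6.84 CPM (SD, n = 4 each). XBP1 stood at 63.5, 56.2, 63.6 and 55.9 CPM in DMSO and 263, 229, 296 and 239 CPM in tunicamycin, a log2 fold change of 2.10 (SE 0.0401); gene counts do not separate its spliced from its unspliced form. CREB3L2, an ER-anchored factor related to ATF6, rose by 1.49 (SE 0.0471, adjusted p 6.06e-11). The proteases that cut ATF6, MBTPS1 and MBTPS2, and the ligase subunit RTCB that joins spliced XBP1 were not called, at 0.06, -0.02 and -0.06. In all, 7 of 12 tested genes of this list rose and none fell, with a median of 0.46.

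ER chaperones and their helpers rose as a group: 20 of 25 tested members rose, 1 fell, and the median log2 fold change was 0.77. Their summed level went from between 3854 and 4494 CPM in the DMSO libraries to between 17660.1 and 19779.9 CPM in tunicamycin, but HSPA5 made up much of this gain. Without HSPA5 the sum of the other 24 went from between 3012 and 3407 CPM to between 8003 and 8981 CPM. DNAJB9, a co-chaperone that also restrains IRE1, rose most, from 10.3, 10.8, 9.05 and 9.15 CPM to 177, 156, 163 and 152 CPM (log2 fold change 4.04, SE 0.0544). DNAJC3 rose by 2.56, SDF2L1 by 2.54, HYOU1, a nucleotide exchange factor of BiP, by 2.33, and CRELD2 by 2.00. HSP90B1 and CALR, at 819 ± 59.1 and 759 ± 66.4 CPM in DMSO (SD, n = 4 each), rose by 1.66 and 1.32. The tunicamycin library that stood apart was the lowest of its group for HSP90B1, at 2060.1 CPM against 2649 to 2908 CPM in the others. FICD, which attaches AMP to BiP, rose from 4.83 ± 0.324 to 47.3 ± 2.61 CPM (SD, n = 4 each), a log2 fold change of 3.29 (SE 0.0691). Only SDF2, the relative of SDF2L1, fell in this list, by 0.19, and FKBP10, FKBP7, FKBP11 and CNPY2 were not called.

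The hand-written list of disulfide isomerases and oxidative folding, not all of whose members are such enzymes, followed with smaller changes. There 21 of 26 rose and 1 fell, with a median of 0.38. CRELD1, low in DMSO at 0.432 ± 0.153 CPM (SD, n = 4), rose by 2.73 (SE 0.234). At that DMSO level it passes the filter on low counts only through the tunicamycin libraries, so its value is a description. SELENOK, also in the list, rose by 1.67 and the disulfide isomerase PDIA4 by 1.52. The paralogous oxidases ERO1B and ERO1A rose by 1.79 and 0.16. PRDX4 fell by 0.16.

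For ER-associated degradation, 19 of 29 genes rose and 3 fell, with a median of 0.27, but the core of the HRD1 complex moved far more than that median. SYVN1, the HRD1 ubiquitin ligase, rose from 31.5, 30.9, 28.7 and 34.3 CPM to 215, 241, 214 and 227 CPM (log2 fold change 2.84, SE 0.0454). Its partner SEL1L stood between 78.0 and 79.0 CPM in every DMSO library and at 538, 587, 388 and 519 CPM in tunicamycin, a log2 fold change of 2.68 (SE 0.078). EDEM1, which helps pick glycoproteins for disposal, rose by 2.24 and DERL2 by 1.88. Members further along the pathway moved less, such as VCP, the ATPase that pulls proteins out of the membrane, at 0.48, and NPLOC4, one of its cofactors, which fell by 0.18.

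Genes for entry into the ER and for transport out of it rose widely and modestly. In the translocation and signal peptidase list 19 of 25 rose and none fell (median 0.33), led by HSPA13 at 1.74 and SEC11C, a signal peptidase subunit, at 0.83. In the list of COPII and COPI vesicle coats and cargo receptors 31 of 39 rose and 3 fell (median 0.44). SEC24D, a cargo adaptor of the COPII coat, stood at 46.6, 47.7, 50.7 and 44.2 CPM in DMSO and 164, 180.0, 145 and 155 CPM in tunicamycin, a log2 fold change of 1.76 (SE 0.0582). Its paralogs changed less or in the other direction, with SEC24A at 0.21, SEC24C at 0.18 and SEC24B at -0.19, all called. TMED7 rose by 1.67, while both small GTPases that start COPII coats, SAR1A and SAR1B, fell by 0.18 and 0.19.

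N-glycan genes, which belong to the pathway that tunicamycin blocks, rose more often than they fell: 23 of 46 rose and 4 fell, with a median of 0.18. Those are 50% and 8.7%, beside 19.7% and 21.9% of all genes tested. DPAGT1, the drug's target, rose only slightly, from 25.3, 27.8, 27.3 and 31.7 CPM to 29.6, 38.9, 33.4 and 37.0 CPM (log2 fold change 0.31, SE 0.0557, adjusted p 0.000608), and its groups overlapped. Larger increases were seen in GFPT1, the entry enzyme of the hexosamine pathway (1.38), MAGT1, an oligosaccharyltransferase subunit (1.18), and GMPPB, which makes GDP-mannose (1.14). DOLK, the kinase that makes dolichol phosphate, fell by 0.77, from 19.7, 20.7, 21.3 and 19.4 CPM to 12.2, 10.5, 12.4 and 12.6 CPM. MFSD2A, reported to carry tunicamycin across membranes, rose by 0.71 (SE 0.0751).

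The branch downstream of PERK gave the highest median of any list: 22 of 24 tested genes of the ATF4 and CHOP network rose, none fell, 19 rose by more than 1, and the median log2 fold change was 2.41. The lists were written with earlier results of these data known, so the rank of a list is a description. For all 22 the tunicamycin libraries lay above the DMSO libraries. ATF4 mRNA itself rose moderately, from 402, 347, 414 and 364 CPM to 925, 839, 1008 and 874 CPM (log2 fold change 1.26, SE 0.0281, adjusted p 2.04e-12). CHAC1, which degrades glutathione, stood at 2.11, 2.05, 3.07 and 2.03 CPM in DMSO and 102, 89.7, 127 and 86.3 CPM in tunicamycin, a log2 fold change of 5.44 (SE 0.0907). DDIT4 and SESN2, both restraints on the growth kinase mTORC1, rose by 5.42 (SE 0.0729) and 4.16 (SE 0.052). DDIT4 shares 41.2% of its exon bases with an antisense gene. TRIB3, a pseudokinase that binds ATF4 and AKT, went from 36.7, 31.6, 38.5 and 30.6 CPM to 458, 396, 477 and 396 CPM, a log2 fold change of 3.65 (SE 0.0367).

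Feedback and partner genes of this branch moved as well. PPP1R15A, the phosphatase subunit that reverses eIF2α phosphorylation, rose from 56.0, 49.5, 57.4 and 49.2 CPM to 321, 269.6, 334 and 270.1 CPM, a log2 fold change of 2.49 (SE 0.0354), whereas its constitutive relative PPP1R15B rose by 0.18. The bZIP factors ATF3 and CEBPB rose by 3.49 and 2.32, and ATF5 was not called at 0.15, with 27.9 to 31.0 CPM in DMSO and 28.1 to 37.7 CPM in tunicamycin. Secreted members rose with them: the stress hormone GDF15 by 2.86, STC2 by 2.71, the peptide ADM2 by 3.14 and VEGFA by 1.41. Across the eIF2 kinases, the exchange factor eIF2B and other initiation factors, by contrast, 9 of 24 rose and 6 fell, with a median of 0.04. The eIF2 kinases for other stresses were not among those that rose: EIF2AK1 was not called at 0.02, and EIF2AK4 and EIF2AK2 fell by 0.15 and 0.30.

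Supply of amino acids formed a related set. Of 21 cytosolic aminoacyl-tRNA synthetases, which charge tRNAs for translation in the cytosol, 14 rose and none fell (median 0.32), led by WARS1 (1.34), AARS1 (1.07), CARS1 (1.05) and SARS1 (1.03). Of 15 mitochondrial counterparts 1 rose and 6 fell, and the median was -0.08. No test compared the lists with each other. In amino acid synthesis and one-carbon metabolism 14 of 22 rose and none fell (median 0.33). GOT1 went from 109, 95.7, 111 and 97.7 CPM to 340.4, 345, 338 and 328 CPM (log2 fold change 1.71), and the serine pathway enzymes PSAT1, PSPH and PHGDH rose by 1.36, 1.11 and 0.83. ASNS, asparagine synthetase, rose by 3.44 (SE 0.124) but at a low level, 0.621, 1.27, 0.837 and 1.39 CPM in DMSO and 8.26, 14.9, 7.68 and 14.1 CPM in tunicamycin. Another gene on the same strand covers 44.6% of the exon bases of ASNS, so its level is uncertain. Among amino acid transporters 11 of 22 rose and 2 fell (median 0.36), with SLC6A9 at 2.21, the cystine carrier SLC7A11 at 2.02 and SLC38A2 at 1.95.

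The promoters of the genes were searched for 3 short motifs known from this response, since many members rose together. Sequences run from 250 bases before to 50 bases after 1 annotated start per gene (RefSeq, GRCh38.p14), and both strands were searched. That start is not always the outer end of the gene. ASNS spans chr7:97851677-97928441 on the minus strand, but its window was chr7:97872359-97872658. TRIB3 spans chr20:380760-397559 on the plus strand, and its window was chr20:381045-381344. Matches therefore depend on the start used, and other starts were not searched. The ER stress response element (ERSE) is CCAAT, 9 free bases and CCACG, bound by NF-Y and ATF6. Of 10457 tested genes with a promoter in the table, 15 (0.143%) held it, beside 22 of all 27305 promoters (0.0806%). Among the 15, 12 genes rose, none fell, 9 rose by more than 1, and the median log2 fold change was 1.32; of the 10006 genes with none of the 3 motifs, 20.4% rose, 23.7% fell and the median was -0.01. The matches in the genes that rose by more than 1, with CCAAT and CCACG in capitals and written 5′ to 3′ on the strand that carries them, are shown because these genes include the leading chaperones.

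HSPA5: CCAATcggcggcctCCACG
FICD: CCAATgggagtggcCCACG
XBP1: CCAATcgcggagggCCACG
CRELD2: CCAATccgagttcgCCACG
ERO1B: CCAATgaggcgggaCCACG
HSP90B1: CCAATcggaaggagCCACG
HSP90B1: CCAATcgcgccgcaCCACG
TRIM5: CCAATggcatttctCCACG
CALR: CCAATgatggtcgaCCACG
SERP1: CCAATtcgctgtctCCACG

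In the same order these genes rose by 3.36, 3.29, 2.10, 2.00, 1.79, 1.66 (which holds both of the sequences given for it), 1.36, 1.32 and 1.14 on the log2 scale. Some matches lie between a pair of genes and count for both: that of CRELD2 is also in the promoter of ALG12, which rose by 0.80, and that of SERP1 in the promoter of EIF2A, which rose by 0.27. CANX, with a match, rose by 0.57, and NLRP4, ZNF17 and TMEM120A, also with matches, were not called. The upstream sequence of HSPA5 is given with its element in capitals (chr9:125241344-125241593, minus strand), followed by that of CRELD2 (chr22:49918384-49918633, plus strand), where the element is on the opposite strand and so reads CGTGG, 9 bases, ATTGG.

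HSPA5: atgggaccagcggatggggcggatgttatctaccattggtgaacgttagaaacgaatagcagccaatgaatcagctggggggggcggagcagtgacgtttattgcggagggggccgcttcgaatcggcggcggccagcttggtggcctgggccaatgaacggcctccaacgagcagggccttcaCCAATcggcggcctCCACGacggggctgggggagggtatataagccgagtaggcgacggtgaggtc
CRELD2: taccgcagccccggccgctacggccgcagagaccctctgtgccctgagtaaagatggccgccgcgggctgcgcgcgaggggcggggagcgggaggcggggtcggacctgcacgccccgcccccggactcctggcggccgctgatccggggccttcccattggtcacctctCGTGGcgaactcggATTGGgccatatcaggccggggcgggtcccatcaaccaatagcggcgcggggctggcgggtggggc

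The C/EBP-ATF response element (CARE), searched as TGATGNAAN, is bound by ATF4 with a C/EBP partner. It was found in 173 of the 10457 promoters (1.65%) and in 3.67% of all promoters in the table. Of these 173 genes, 71 rose (41%), 30 fell (17.3%) and 21 rose by more than 1 (12.1%), against 2.32% rising by more than 1 among genes with none of the motifs. Among the 21 were KLHDC7B, IL21R, NHSL1-AS1, THORLNC, LURAP1L-AS1 and LINC02983, with mean levels of 0.00997 to 0.379 CPM in DMSO. Such genes pass the filter on low counts only through the tunicamycin libraries, so their direction was fixed by the filter. Both shares were counted without leaving out such genes. The median of the 173 was 0.08. CARE was present in 6 of 16 promoters of cytosolic aminoacyl-tRNA synthetases (37.5%) and 3 of 14 for amino acid synthesis (21.4%). It was in 4 of 19 of amino acid transporters (21.1%) and 4 of 22 of the ATF4 and CHOP network (18.2%). These shares rest on few promoters, in lists written with earlier results of these data known. None of the 122 promoters of genes that fell by more than 1 held any of the 3 motifs. Most promoters hold none, since 10006 of the 10457 tested were without any of them. The upstream sequences of CHAC1 (chr15:40953221-40953470), HERPUD1 (chr16:56931892-56932141) and ASNS (chr7:97872409-97872658, minus strand) are given as examples, chosen after their values were seen; capitals mark TGATGNAA, or TTNCATCA where it lies on the opposite strand.

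CHAC1: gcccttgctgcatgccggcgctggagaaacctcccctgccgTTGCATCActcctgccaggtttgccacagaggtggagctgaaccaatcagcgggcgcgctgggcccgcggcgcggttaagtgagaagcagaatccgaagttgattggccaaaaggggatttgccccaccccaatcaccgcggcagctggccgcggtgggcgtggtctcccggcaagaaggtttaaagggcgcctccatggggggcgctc
HERPUD1: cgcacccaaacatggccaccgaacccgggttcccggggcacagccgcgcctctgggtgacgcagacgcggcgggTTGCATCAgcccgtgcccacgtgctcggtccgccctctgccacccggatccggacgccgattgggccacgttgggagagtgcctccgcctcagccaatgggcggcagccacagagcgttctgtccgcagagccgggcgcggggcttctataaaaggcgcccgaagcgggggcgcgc
ASNS: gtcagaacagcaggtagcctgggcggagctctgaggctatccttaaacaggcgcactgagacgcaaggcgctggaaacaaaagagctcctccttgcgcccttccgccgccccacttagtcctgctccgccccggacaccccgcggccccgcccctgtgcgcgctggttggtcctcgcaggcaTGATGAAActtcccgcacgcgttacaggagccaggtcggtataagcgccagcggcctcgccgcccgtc

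The third motif, TGACGTG, bound by XBP1 and ATF6, was in 266 promoters, of which 104 genes rose and 42 fell (median 0.10). Within these windows DDIT3, TRIB3, DNAJB9, SESN2, SDF2L1 and MANF held none of the 3 letter patterns. A match describes letters in a window and does not show binding.

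Death and survival genes moved in both directions, 9 of 27 rising and 7 falling (median -0.01). Those are 33.3% and 25.9%, beside 19.7% and 21.9% of all genes tested. BBC3, which encodes the BH3-only protein PUMA, stood at 5.88, 5.73, 5.38 and 4.90 CPM in DMSO and 18.0, 17.1, 20.1 and 17.2 CPM in tunicamycin (log2 fold change 1.72, SE 0.0832). PMAIP1 (NOXA) rose by 1.47 and the death receptor TNFRSF10B (DR5) by 1.45, from 146 ± 5.23 to 398 ± 27.7 CPM (SD, n = 4 each). The decoy receptor TNFRSF10D fell by 0.80, while BCL2L11 (BIM), named often with ER stress, was not called at -0.07. Several of these genes are also targets of p53. In the list of p53 targets 9 of 28 rose (32.1%), 11 fell (39.3%) and the median was -0.10. Both shares were above those of all genes tested, and a role of p53 was not tested. Those that rose most there were SESN2, GDF15, BBC3 and TNFRSF10B, while MDM2 was not called at -0.04, CDKN1A rose by 0.62, and SESN1, POLH, BTG2 and PHLDA3 fell by 0.70 to 0.87. In the autophagy list 16 of 35 rose and 4 fell (median 0.11), with MAP1LC3B, the LC3 protein of autophagosomes, going from 71.5, 66.2, 81.8 and 68.7 CPM to 379, 337, 343 and 326 CPM (log2 fold change 2.27).

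Genes of rapid signalling rose in a broad front. Of 35 immediate early and AP-1 genes 27 rose, 16 of them by more than 1, and 7 fell; the median was 0.88. EGR1 stood at 59.4, 57.2, 58.2 and 59.9 CPM in DMSO and 418, 364, 458 and 358 CPM in tunicamycin (log2 fold change 2.76, SE 0.055), and JUN and FOS rose by 1.88 and 1.77. BTG1, a restraint on cell division, rose most in the list, from 10.9, 10.9, 10.4 and 10.9 CPM to 107, 84.8, 100.2 and 81.0 CPM. MYC was not called at -0.09, and SGK1 and BTG2 fell by 0.94 and 0.85. EGF receptor ligands rose too, HBEGF by 2.32, AREG by 1.63 and EREG by 1.17, within a list of 16 of which 9 rose and 3 fell (median 0.24). The inflammatory list had 11 of 16 rising and none falling (median 0.48), led by PTGS2 (3.21, SE 0.199) and CXCL8 (2.60, SE 0.231), both below 6 CPM in every library; without the tunicamycin library that stood apart 9 rose and 1 fell. Neither the NF-κB inhibitor NFKBIA (0.11) nor TNFAIP3 (-0.36) was called. Among circadian genes 9 of 15 rose and 1 fell (median 0.30), led by the repressor BHLHE40 (2.68) and PER1 (1.73).

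Hosts of small nucleolar RNAs and other transcripts known to be degraded quickly by translation-linked decay rose in 19 of 26 cases, with 1 fall and a median of 0.35. GADD45A went from 40.5, 40.9, 39.2 and 39.9 CPM to 185, 153, 201 and 167 CPM (log2 fold change 2.13, SE 0.0594), UPP1 rose by 2.07, GAS5 by 0.71 and SNHG1 by 0.69. Of the decay factors themselves UPF1 fell by 0.19, and SMG1 and SMG5 rose by 0.19 and 0.13. Of all 786 long noncoding RNAs tested, 131 rose (16.7%) and 72 fell (9.16%). Of 11986 protein-coding genes 2512 rose (21%) and 2949 fell (24.6%).

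Cholesterol and fatty acid genes rose more often than they fell, with 18 of 35 rising and 3 falling (median 0.09). Those are 51.4% and 8.57%, beside 19.7% and 21.9% of all genes tested. STARD4, which moves cholesterol between membranes, went from 64.9, 57.7, 68.4 and 64.7 CPM to 232, 252, 209.6 and 222 CPM (log2 fold change 1.84), and MSMO1 and HSD17B7 rose by 1.16 and 1.07. The sterol-regulated genes SQLE and FASN were not called at -0.05 and -0.04, and INSIG1 fell by 0.22. In the list of NRF2 targets, 7 of 22 rose and 4 fell (median 0.04): SLC7A11, which is also an ATF4 target, rose by 2.02, while NQO1 (0.05) and HMOX1 (-0.11) were not called and GCLM fell by 0.13. Of the interferon-stimulated genes 4 of 18 rose and 3 fell (median -0.03). Those shares, 22.2% and 16.7%, were near the 19.7% and 21.9% of all genes tested. IFIT1 fell by 1.36, from 1.91, 1.79, 1.87 and 1.43 CPM to 0.277, 0.868, 0.702 and 0.919 CPM. At 0.277 CPM in tunicamycin, IFIT1 passes the filter on low counts only through the DMSO libraries, so its value is a description. Its call was lost in parental sample 2 alone (adjusted p 0.0657).

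**Figure D2:**
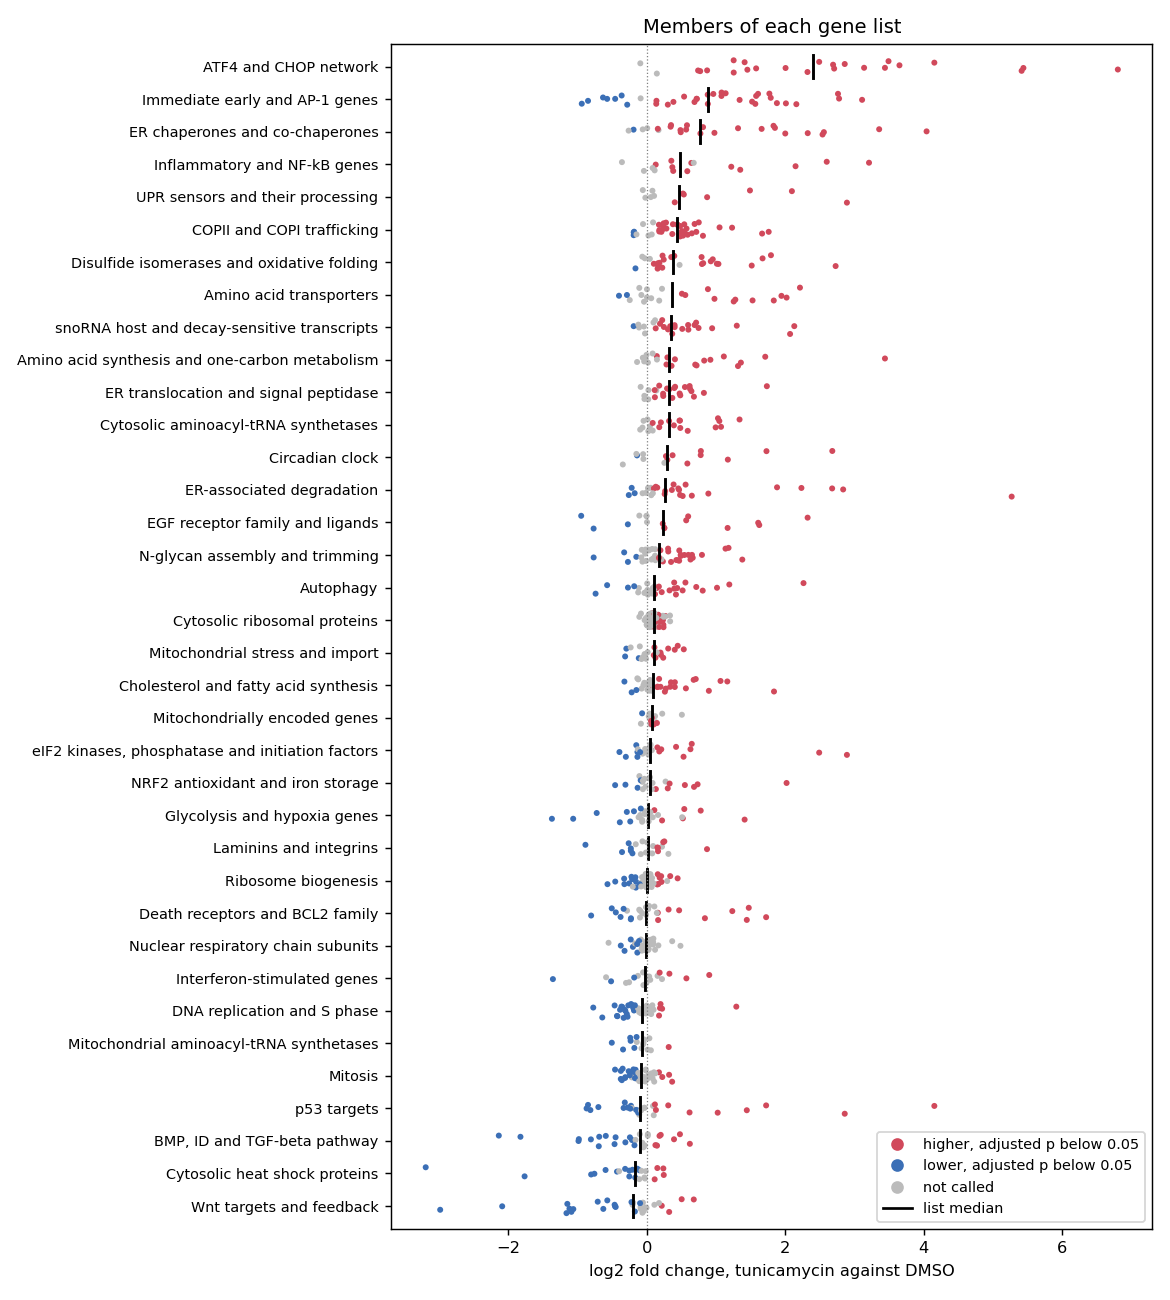
Log2 fold change (tunicamycin against DMSO) of every tested member of 36 gene lists, ordered by list median (black line); red and blue points passed the test as higher or lower, grey points did not. The ATF4 and CHOP network has the highest median (2.41) and the Wnt list the lowest (-0.20), and most lists hold members on both sides of 0. The lists were written with earlier results of these data known, so their order is a description.

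Among the genes that fell, Wnt targets and receptors had the lowest median, -0.20, of the lists with more than 4 tested genes: 16 of 31 fell, 7 of them by more than 1, and 4 rose. This rank too is a description, since the lists were written with earlier results known. AXIN2, a feedback inhibitor and standard readout of β-catenin, fell from 5.26, 4.76, 4.07 and 4.25 CPM to 0.231, 1.05, 0.281 and 0.774 CPM. That is a log2 fold change of -2.99 with an SE of 0.28, with no overlap between the groups. AXIN2 passes the filter on low counts only through the DMSO libraries, so its value is a description. In tunicamycin AXIN2 was lower in replicate 1 libraries (0.231 and 0.281 CPM) than in replicate 2 libraries (1.05 and 0.774 CPM). Another gene on its strand covers 25.2% of its exon bases. SP5, a further direct target, fell by 2.09 (SE 0.404) at levels below 1 CPM. At such levels it passes the filter on low counts only through the DMSO libraries, so its value is a description. SOX9 went from 144, 113, 140.0 and 109.8 CPM to 59.7, 45.5, 74.9 and 50.1 CPM (log2 fold change -1.15), SOX4 fell by 1.06, and RNF43, the ubiquitin ligase that removes Frizzled receptors, fell by 1.09. The receptors FZD1 and FZD4 fell by 1.16 and 1.12, and FZD3, FZD5 and FZD7 by 0.46 to 0.63, whereas FZD2 rose by 0.50. Other targets went against this: EPHB3 rose by 0.68 and DKK1 by 0.22, MYC and NKD1 were not called, and CCND1 fell by 0.47. AMER1, which takes part in the control of β-catenin, was among the 15 largest decreases at -1.44.

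The BMP and TGF-β list fell in 14 of 31 cases and rose in 7 (median -0.10). BMP4, the ligand, had the largest decrease of all well-covered genes: 134, 143, 131 and 136 CPM in DMSO and 29.4, 30.8, 30.4 and 33.0 CPM in tunicamycin, a log2 fold change of -2.14 with an SE of 0.0414 (adjusted p 6.42e-13). Genes that BMP signalling turns on were lower as well, with ID1 at -0.24, ID2 at -0.45, SMAD6 at -0.98, SMAD7 at -0.81, MSX1 at -0.99 and the pseudoreceptor BAMBI at -1.83, all called, and ID3 not called at -0.16. The SMADs that BMP receptors activate were not among the genes that fell: SMAD1 rose by 0.20 and SMAD5 was not called at 0.01.

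Of 23 tested cytosolic heat shock proteins and helpers 13 fell and 4 rose, with a median of -0.17. HSPA8, the constitutive cytosolic relative of BiP, fell from 3871, 3543, 3694 and 3389 CPM to 1092, 1069, 1055 and 1041 CPM, a log2 fold change of -1.77 with an SE of 0.0283 (adjusted p 1.05e-13). HSPA2, a further cytosolic family member, fell from 4.51, 4.33, 4.34 and 4.55 CPM to 0.554, 0.503, 0.468 and 0.387 CPM (log2 fold change -3.20, SE 0.181). At 0.387 CPM in tunicamycin, HSPA2 passes the filter on low counts only through the DMSO libraries, so its value is a description. The co-chaperones DNAJA1, HSPH1 and BAG3 fell by 0.80, 0.60 and 0.76, and HSP90AB1 was not called at -0.04. HSPA1A and HSPA1B, the stress-inducible members, did not pass the count filter, with at most 3 counts in any library; they are near-identical copies, and how reads that match both were counted is not given in the sources used here.

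**Figure D3:**
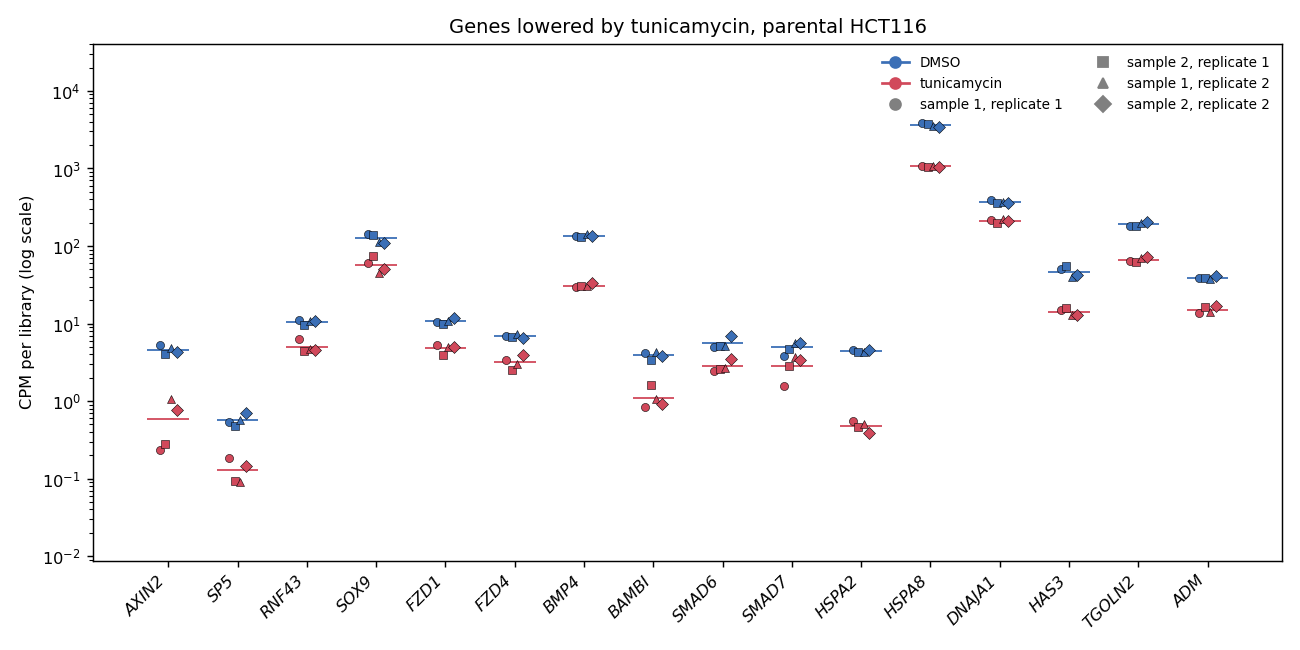
Library-normalised counts (CPM, log axis) of 16 genes lower in tunicamycin, drawn as in the plot of response genes. HSPA2 (-3.20) and AXIN2 (-2.99) fell most, and several genes shown, such as ADM (-1.37), fell by less than HSPA8 (-1.77). HSPA2, AXIN2 and SP5 pass the filter on low counts only through the DMSO libraries, so their values are descriptions. For HSPA2, AXIN2, HSPA8 and ADM the groups do not overlap. AXIN2 shows a gap between replicate 1 and replicate 2 libraries in tunicamycin.

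The 15 largest decreases also held HAS3, a hyaluronan synthase (-1.71, from 46.5 ± 7.13 to 14.2 ± 1.39 CPM, SD, n = 4 each), the Polycomb subunit CBX2 (-1.57), the potassium channel gene KCNJ12 (-1.81), ZNF503 (-1.75) and LRFN1 (-1.91). TGOLN2, a resident of the trans-Golgi network, fell from 181, 195, 182 and 204 CPM to 63.1, 69.9, 61.3 and 71.6 CPM (log2 fold change -1.52), and the Golgi glycosyltransferases B4GAT1 and LFNG fell by 1.40 and 1.40. ADM fell by 1.37, while its paralog ADM2 rose by 3.14. The hypoxia and glycolysis list around ADM was mixed, with 6 of 29 rising, 8 falling and a median of 0.01. Those are 20.7% and 27.6%, near the 19.7% and 21.9% of all genes tested.

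Cell cycle genes had medians near 0. Of 47 replication genes 19 fell, 5 rose and 23 were not called (median -0.07), with CCNE1 at -0.77, FEN1 at -0.64 and PCNA at -0.32. CDC6, a licensing factor, was an exception and rose from 193, 173, 199 and 173 CPM to 471, 448, 443 and 446 CPM (log2 fold change 1.29, SE 0.0383). Of 44 mitosis genes 17 fell and 4 rose (median -0.08). That list depended on the library that stood apart: its matched pair had a median of -0.29 against -0.06 to 0.01 in the other 3 pairs, and without it 17 fell and 11 rose. Of 78 cytosolic ribosomal protein genes 35 rose and none fell (median 0.11), but for none of them did the groups separate, and 1 rose without the replicate number as a term. Genes of the mitochondrial genome (6 of 15 rose, 1 fell, median 0.07) and the nuclear respiratory chain genes (none of 42 rose, 7 fell, median -0.02) changed little, and without the replicate term no gene of the mitochondrial genome was called.

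Some transcripts were close to absent in DMSO. Of the called genes, 22 with a symbol rose from fewer than 10 counts in every DMSO library. Such genes pass the filter on low counts only through the tunicamycin libraries, so their direction was fixed by the filter and their values are a description. HSPA5-DT, a noncoding transcript that starts beside the HSPA5 promoter, stood at 0.166, 0.0874, 0 and 0.0989 CPM in DMSO and 1.20, 1.23, 1.45 and 1.16 CPM in tunicamycin (log2 fold change 3.78, SE 0.442). MIR616, a microRNA hairpin inside the DDIT3 locus, rose by 4.60 (SE 0.297); the hairpin (chr12:57519163-57519259) lies within DDIT3, and reads of the hairpin and of DDIT3 cannot be told apart here. ANGPT4, an angiopoietin, rose from 0.124, 0.219, 0.159 and 0.346 CPM to 1.57, 2.10, 1.64 and 1.84 CPM (log2 fold change 3.08), and BEST1, a chloride channel gene, by 3.36.

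The parental samples were fitted separately to see how far the response repeated. Over 14277 genes the log2 fold changes of sample 1 and sample 2, which share no library, correlated with Pearson's r of 0.814 (a correlation across genes, which are not independent replicates), and 77.2% had the same sign. Of 2860 genes called in both samples, 2857 changed in the same direction. Between replicate 1 and replicate 2 libraries, which share none either, r was 0.775 over 14001 genes, and of 3476 genes called in both 3454 changed in the same direction and 22 in opposite directions. No gene was called for a difference in response between the parental samples (0%, with 979 of 14398 at an unadjusted p below 0.05; DESeq2 also called none, with 273 below 0.05) or between the replicate numbers (0%, with 1032; DESeq2 none, with 300). These counts of 0 did not hold for every set of libraries: without the tunicamycin library of sample 2, replicate 2 the test between samples called 182 genes and that between replicates 126, and without that of sample 1, replicate 1 the test between replicates called 195. In the plot of the parental samples the response genes lie along the diagonal.

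**Figure D4:**
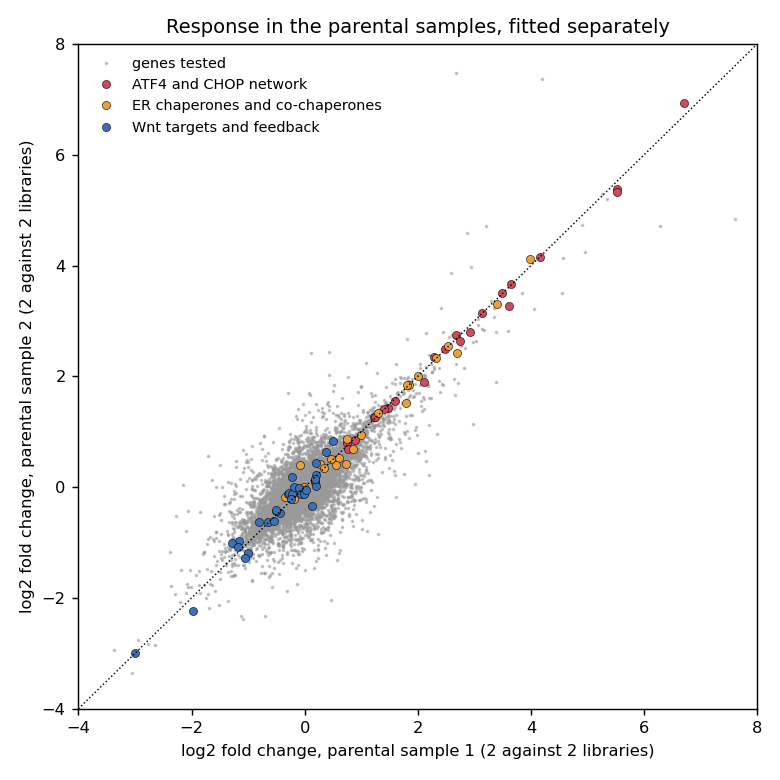
Log2 fold change of each gene (tunicamycin against DMSO) in parental sample 1 (horizontal axis) and sample 2 (vertical axis), each from 2 against 2 libraries, with 3 gene lists coloured and the dotted line marking equal values. Pearson's r over 14277 genes is 0.814, and the ATF4 and CHOP genes and ER chaperones lie close to the line while small changes scatter around 0.

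The response was also set beside that of clones lacking the RNA-binding proteins IGF2BP3 or IGF2BP2, each with 12 libraries. The tunicamycin dose and time of the IGF2BP2 clones were not established. The clones had been sorted as single cells after Cas9 editing of the same inducible line. No gene was called for a different response in IGF2BP3 knockout clones (0% of 14236, with 478 at an unadjusted p below 0.05; 1 by DESeq2, with 292) or in IGF2BP2 knockout clones (0% of 14169, with 512; DESeq2 none, with 312). The control libraries of IGF2BP2 clone G6 carry conflicting labels, and without that clone 1 gene was called. DDIT3 rose by 6.81 in parental cells, 6.45 in IGF2BP3 and 6.54 in IGF2BP2 knockout clones, HERPUD1 by 5.27, 5.11 and 5.17, and HSPA5 by 3.36, 3.10 and 3.40. Over genes tested in each, the parental log2 fold changes correlated with those of the knockout groups at r of 0.922 for both (14071 and 14014 genes, across genes).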

How the data were processed

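The authors deposited whole-number counts per gene for 32 libraries; the values hold no normalization. Per the submitters' processing notes, STAR 2.7.5c and hg38 were used; the counting tool, its annotation and its use of strand are not given in the sources used here. Per the labels' protocols, poly(A) RNA went through a directional kit and paired reads of 100 bases. Groups came from the sample titles.

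Counts of the 8 parental libraries were fitted with edgeR 4.0.16 (R 4.3.3): TMM normalization, filterByExpr with a minimum count of 10, parental sample, replicate number and treatment as terms, the quasi-likelihood test, and Benjamini-Hochberg adjustment with a threshold of 0.05. CPM values are TMM-normalized. Interactions used the same method. Each SE is the absolute log2 fold change divided by the square root of the test's F statistic. It was not estimated by the fit itself and is approximate. Replicate numbers pair the libraries: deviations of same-numbered libraries correlated at r 0.433 to 0.722 in all 6 pairings of sample and treatment. On simulated counts 172 of 200 genes changed by 1 on the log2 scale and 137 of 200 changed by 0.5 were recovered over 14165 and 14193 genes, with 7.03% and 4.86% of the calls false. In each simulation only those 200 genes changed, as many up as down. Its replicate effect was the same in each sample and treatment. Far more genes were called in the real data, so these rates need not hold there.

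Of 1133 genes in 40 hand-written lists 1131 were matched by symbol. Members and lists were chosen with earlier results of these data known. Any listed gene could be named; beyond them, the 15 largest increases and decreases among called genes with a symbol, a mean count of at least 100 and 1 direction in all 4 matched pairs, and the 10 with the highest tunicamycin count among called genes under 10 counts in every DMSO library; genes named for a promoter match were named after their values were seen. Positions, promoters and exon overlaps come from RefSeq (GRCh38.p14) and GENCODE release 29. Alternatives were DESeq2 1.42.0, other normalization, filters and terms, and subsets of libraries. Figures were drawn with matplotlib.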

Additional observations from a re-analysis of the deposited data

Results flagged for a closer look

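For the 15 largest increases and the 15 largest decreases, each group of 4 libraries was checked for a single library apart from the rest, 60 combinations in all, of which 5 stood out; chance gives about 1 in 20. CHAC1 was highest at 3.07 CPM in the DMSO library of sample 2, replicate 1. FICD was lowest at 4.35 CPM in the DMSO library of sample 1, replicate 1. BTG1 was lowest at 10.4 CPM in the DMSO library of sample 2, replicate 1, where the other 3 stood at 10.9 CPM. B4GAT1 was highest at 9.33 CPM in that same library. AMER1 was lowest at 3.42 CPM in the tunicamycin library of sample 2, replicate 1. In each case the gap was small beside the difference between the treatments, and all 5 genes were called in every refit.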

How the results depend on the processing

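The count of 5989 called genes was 3854 without the replicate block, 3434 in parental sample 2 alone and 259 when tested against a log2 fold change of 1; the replicate block by matched pair gave 5794. Other planned settings gave 4544 to 6153, DESeq2 giving 4898 and its size factors 5971. Leaving out each library in turn gave 4938 to 6225. For the response between parental samples these refits called 0 to 182 genes, and for that between replicate numbers 0 to 195. Between parental and IGF2BP3 knockout cells DESeq2 called 1 gene, and between parental and IGF2BP2 knockout cells 1 was called without clone G6. The cause of these shifts was not tested, beyond the smaller number of libraries. Of 145 named genes refitted 3033 times in all, 3029 refits kept direction and call, 4 lost the call and none reversed: IFIT1 and CXCL3 in parental sample 2 alone (adjusted p 0.0657 each), and IL23A in parental sample 1 alone (0.142) and in replicate 1 libraries alone (0.185). List medians kept their sign in every refit for the ATF4 and CHOP network (2.35 to 2.48), ER chaperones (0.67 to 0.79), immediate early genes (0.83 to 1.03), Wnt genes (-0.24 to -0.13) and cytosolic heat shock proteins (-0.20 to -0.15). Small medians kept their sign but moved by more than 1.5 times: BMP and TGF-β genes (-0.16 to -0.05), ribosomal proteins (0.04 to 0.17), cholesterol (0.08 to 0.17), autophagy (0.08 to 0.19), mitochondrial stress (0.01 to 0.15), mitochondrial genome (0.01 to 0.12), p53 targets (-0.12 to -0.04), eIF2 kinases and initiation factors (0.02 to 0.06) and NRF2 targets (0.01 to 0.05). The mitosis median ran from -0.19 to 0.02 and turned positive in replicate 2 libraries alone. Lists with medians near 0 (ribosome biogenesis, death receptors and BCL2 family, laminins and integrins, interferon-stimulated, nuclear respiratory chain, and glycolysis and hypoxia genes) also changed sign. Total counts of 19103176 to 24913021 per library limit genes at low levels: SP5, below 1 CPM, had an SE of 0.404 and HSPA8 one of 0.0283.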

Other observations

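Other listed groups moved little or in both directions. Over all genes tested 19.7% rose and 21.9% fell. The shares were near these for ribosome biogenesis (15.7% and 21.6%), laminins and integrins (27.3% each) and ZNF genes (22.3% and 19.8%). Of 51 ribosome biogenesis genes 8 rose and 11 fell (median 0.00), with RRP12 at 0.45 and RRS1 at -0.57, both called. Of 22 laminin and integrin genes 6 rose and 6 fell, from LAMB3, a laminin chain of epithelial basement membranes, at 0.87 to ITGB8 at -0.89. Among 21 genes of mitochondrial stress and import 10 rose and 3 fell (median 0.10), with the translocase subunit TIMM17A at 0.53 and the mitochondrial HSP70 gene HSPA9 at 0.40. Of 373 numbered ZNF zinc finger genes 83 rose and 74 fell, with a median of 0.00.

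Of the reported IRE1 cleavage substrates 4 could be tested: SCARA3 fell by 0.66 and COL6A1 by 0.14, BLOC1S1 was not called at -0.57, and HGSNAT was not called at -0.13. IGF2BP2 rose by 0.15, while IGF2BP3 at -0.08 and IGF2BP1 at -0.06 were not called; the drug exporter gene ABCB1 rose by 0.36.

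Gene length differed between classes. The median gene span was 28649 bases over all tested genes, 16685.5 bases for genes that rose by more than 1 on the log2 scale and 13750 bases for those that fell by more than 1. In the fifth of genes with the shortest spans 16.2% rose and 22.5% fell, and in the fifth with the longest spans 22% rose and 17.7% fell. The matched pairs did not share this order: the median log2 ratio was 0.03 among the shortest and -0.03 among the longest genes for sample 2, replicate 1, and -0.10 and 0.06 for sample 1, replicate 2.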
